A study of Mus musculus with 12 samples.

Results

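Colon injured with dextran sulfate sodium (DSS) on one diet was set against colon from mice fed a high-fat diet (HFD) without DSS, 2 conditions that differ in both diet and injury. The comparison used 6 of the 12 colon libraries of the series, 3 labelled CD+2% DSS (written CD+DSS here) and 3 labelled HFD, and all 13312 genes of the 54532 in the table that reached 1 FPKM or more in at least 3 of these 6 libraries. FPKM divides fragments by gene length and library size, so it is a level per length. All mice were wild-type C57BL/6J. The CD+DSS mice had diet CD, which the labels do not spell out, with 2% DSS, and the HFD mice had the high-fat diet and no DSS. The 3 HFD+DSS libraries (both exposures) and the 3 CD libraries (diet CD, no DSS) are given beside them. The labels used here give no ages, no length of either exposure and no position along the colon, and they do not state whether a group's 3 samples are 3 animals. The p-values measure the spread among the samples and nothing wider.

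DSS is a sulfated polysaccharide that damages the lining of the colon when mice drink it, after which bacteria reach the tissue, leukocytes enter and the surviving epithelium spreads and repairs. Cytokines of the IL-6 family then act through the transcription factor STAT3 and, with NF-kappaB, turn on antimicrobial and repair genes. A high-fat diet loads the tissue with fatty acids, which are ligands of the PPAR receptors and induce genes of fat uptake and oxidation. Because both exposures differ between the sides, a gene can be higher in CD+DSS because of either of them, and the CD libraries show the level without either.

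The 6 libraries carried the epithelial genes of colon. Epcam, a surface protein of epithelium, was at 853, 1195 and 797 FPKM in CD+DSS and 699, 599 and 812 FPKM in HFD. Cdx2, a transcription factor of intestinal epithelium, was at 119, 227 and 127 FPKM in CD+DSS and 92.3, 91.1 and 100 FPKM in HFD. Prss1 and Cpa1, enzymes of the exocrine pancreas, were listed at 0 in all 6, and the squamous keratins Krt5 and Krt14 did not pass 0.0857 and 0.668 FPKM. The fragments recovered over genes ranged from 14700000 to 17900000 per library over the series, and the deposited FPKM had been scaled so that the median gene had the same level in every library.

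Position along the gut was read from the posterior Hox genes, transcription factors that pattern the hind end of the body and remain on in adult distal colon and rectum. Hoxb13 (chromosome 11, 96194316 to 96197447) was at 22.6, 0.0336 and 0.122 FPKM in CD+DSS replicates 1, 2 and 3, and at 0.711, 0 and 19.3 FPKM in HFD replicates 1, 2 and 3. In fragments these were 847, 1 and 4 in CD+DSS against 25, 0 and 652 in HFD. Each side therefore held 1 library with high Hoxb13 and 2 with little or none, and the groups overlapped. Hoxd13 followed the same split, at 1.11, 0 and 0 FPKM in CD+DSS and 0.0253, 0 and 8.22 FPKM in HFD. Hoxa13 did not: it was at 16.8, 1.59 and 10.0 FPKM in CD+DSS and 6.30, 16.3 and 7.25 FPKM in HFD, so that HFD replicate 2, with no Hoxb13 fragment, had nearly as much Hoxa13 as the Hoxb13-high CD+DSS replicate 1.

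The mean of log2(FPKM + 1) over these 3 genes was 1.65 ± 1.45 in CD+DSS and 2.04 ± 1.29 in HFD (SD, n = 3 each), a difference of -0.39 ± 1.12 (SE). The exact 2-sided permutation test over samples gave p = 0.5, and the smallest p that 3 libraries against 3 allow is 0.1. The sign of this difference turned when CD+DSS replicate 2 was left out (0.19) or HFD replicate 3 was left out (0.35). In Hoxb13 the other groups stood apart from both sides, at 27.4, 37.8 and 62.8 FPKM in HFD+DSS and 32.9, 61.3 and 28.8 FPKM in CD. The mean level over the 3 genes was 4.04 ± 0.46 in HFD+DSS and 3.96 ± 1.03 in CD (SD, n = 3 each), and there CD replicate 3 (3.13) lay below CD+DSS replicate 1 (3.26) and HFD replicate 3 (3.53). CD+DSS and HFD thus had a like mix of Hoxb13-high and Hoxb13-low libraries, whereas a comparison of either with CD also set a mixed group against a Hoxb13-high one. None of the 18 tested members of the 39 Hox genes was called by limma or reached an unadjusted p under 0.05, and their median log2 fold change was -0.13 (-0.16 in the Hoxb13-low libraries and 0.15 in the Hoxb13-high ones). Hoxb13 and Hoxd13 did not pass the filter on low values and were not tested, so of the 3 posterior genes this covers Hoxa13 alone. Hoxb6, which lies ahead of Hoxb13 in the cluster, was at 12.5, 45.5 and 22.5 FPKM in CD+DSS and 34.0, 20.7 and 17.1 FPKM in HFD.

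**Figure D1:**
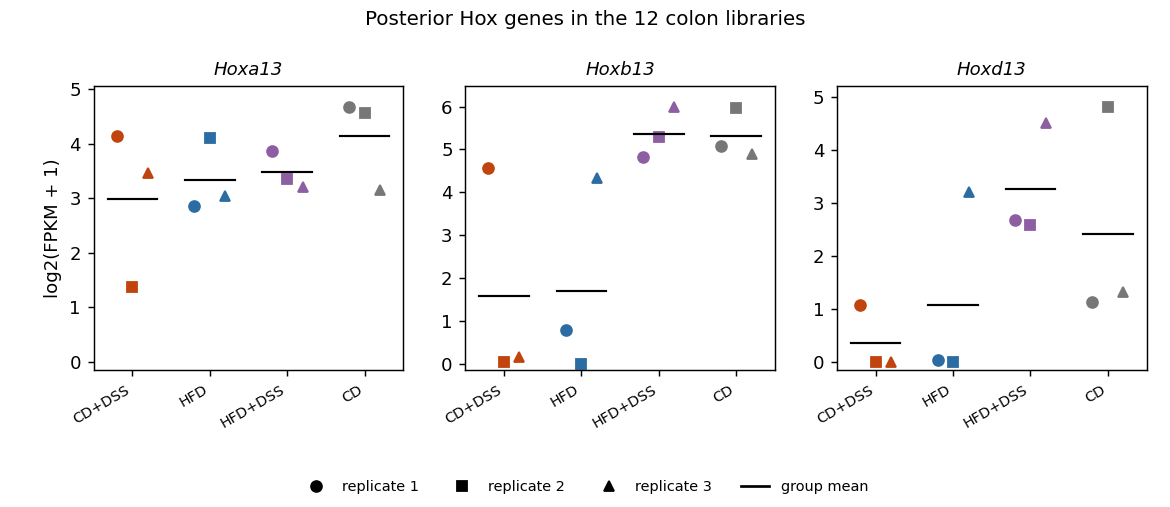
Levels of Hoxa13, Hoxb13 and Hoxd13 as log2(FPKM + 1) in the 12 libraries, with 1 point per library, a marker shape per replicate number and a bar at the group mean. CD+DSS and HFD each hold 1 library with high Hoxb13 and 2 with little or none, while every HFD+DSS and CD library is at 27.4 FPKM or more.

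With all 12 libraries in 1 limma fit on log2(FPKM + 1), 51 genes, 0.383% of those tested, were called at an adjusted p under 0.05 (Benjamini-Hochberg over the 13312 genes). Of these, 41 were higher in CD+DSS (0.308%) and 10 were lower (0.0751%). The changes were large where they were called, between 0.84 and 4.70 on the log2 scale for the higher genes and between 0.74 and 2.04 in size for the lower ones. Fold changes were positive in 7102 of the 13312 genes and negative in 6210. Without adjustment, 1417 genes (10.6%) were higher at p under 0.05 and 755 (5.67%) were lower. These shares are the background for the counts in gene lists below. All 3 CD+DSS values lay above all 3 HFD values in 2012 genes (15.1%), and below them in 1199 genes (9.01%). The count of 51 depended on single libraries: it was 19, 25 and 9 without CD+DSS replicate 1, 2 or 3, 18, 7 and 21 without HFD replicate 1, 2 or 3, 20 without CD replicate 1 and 81 without HFD+DSS replicate 1. Scaling the libraries to equal FPKM totals (TPM) left 20 genes higher and 2 lower. Mmp3, Hspa1a, Hspa1b, Pla2g5, Capg, Bcl3 and Gch1 were called in all 12 fits that left out 1 library and under each of the 9 other settings tried. At the other end, Nos2, Duoxa2, Tspo, S100a11, Smpd3, Efhd2, Pgs1, Arpc1b, Bambi, Sdc2, Acsl1 and Klhl23 were called in 2 of those 12 fits, and Ffar4, Gm25301, Stat3 and Pcdh17 in 3. A second tool, voom on the recovered fragments, called 54 genes, 44 of them among the 51.

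Among called genes, the matrix protease Mmp3 rose and the proteoglycan genes Ogn and Sdc2 fell. Mmp3 (stromelysin-1, an enzyme that cleaves extracellular matrix; chromosome 9, 7445822 to 7455975) was at 19.1, 10.1 and 47.4 FPKM in CD+DSS and 0.244, 0.220 and 0.435 FPKM in HFD. The groups did not overlap, and Mmp3 rose by 4.09 ± 0.39 on the log2 scale (SE; limma adjusted p = 0.00401). It had 10.6, 13.4 and 12.5 FPKM in HFD+DSS and 0.666, 0.989 and 0.466 FPKM in CD. Mmp13, a collagenase, had 8.57, 13.7 and 23.1 FPKM in CD+DSS and 1.39, 2.61 and 1.95 FPKM in HFD, with no overlap, but missed the call (2.35 ± 0.44, limma adjusted p = 0.0544). Il11, a cytokine of the IL-6 family that stromal cells make in injured gut, had 2.57, 2.72 and 16.9 FPKM in CD+DSS and at most 0.389 FPKM in HFD (limma adjusted p = 0.0879).

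Ogn, which encodes osteoglycin, a small leucine-rich proteoglycan made by fibroblasts, moved the other way. It was at 25.4, 13.2 and 14.3 FPKM in CD+DSS and 57.4, 96.4 and 68.7 FPKM in HFD, and fell by 2.04 ± 0.31 on the log2 scale (SE; limma adjusted p = 0.0255). Sdc2, a cell-surface heparan sulfate proteoglycan, was nearly constant within CD+DSS (13.8, 13.4 and 13.6 FPKM) and at 21.5, 28.0 and 22.8 FPKM in HFD, a fall of 0.78 ± 0.14 (limma adjusted p = 0.0456). Its relative Sdc1 went the other way and was not called (0.73 ± 0.17, limma adjusted p = 0.0875). Sdc1 was at 74.5, 86.7 and 75.3 FPKM in CD+DSS and 52.8, 41.0 and 48.2 FPKM in HFD. Over 29 tested matrix and fibroblast genes, a list that does not hold Sdc2, Mmp3 was called higher and Ogn lower, 19 had positive fold changes, and the median was 0.23 beside 0.03 for all genes tested. That median was -0.11 with 11 of 29 positive in the libraries low in Hoxb13 (CD+DSS replicates 2 and 3 minus HFD replicates 1 and 2). In the pair high in Hoxb13 (CD+DSS replicate 1 minus HFD replicate 3) it was 0.76 with 27 of 29 positive. Over all genes tested, 56.0% were positive in the low libraries and 50.7% in the high pair.

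Nos2, Gch1 and Gchfr rose, of which Gch1 and Gchfr were named after their values were seen. Nos2, the inducible nitric oxide synthase, was at 17.8, 16.1 and 21.7 FPKM in CD+DSS and 1.47, 2.67 and 0.872 FPKM in HFD (2.92 ± 0.52, limma adjusted p = 0.0456). Gch1 makes the first step of tetrahydrobiopterin, the cofactor that Nos2 needs, and was at 8.53, 9.80 and 9.11 FPKM in CD+DSS and 3.16, 1.98 and 3.42 FPKM in HFD (1.42 ± 0.16, limma adjusted p = 0.00401). Gchfr, the feedback regulator that binds the Gch1 enzyme, was at 16.3, 17.6 and 12.2 FPKM in CD+DSS and 5.84, 2.46 and 4.35 FPKM in HFD (1.69 ± 0.28, limma adjusted p = 0.0338). None of the 3 genes had overlapping groups. Relative to CD their patterns differed: Nos2 in HFD was close to CD (0.394, 2.03 and 1.73 FPKM), while Gch1 in CD (4.83, 5.24 and 5.54 FPKM) and Gchfr in CD (6.97, 8.98 and 10.6 FPKM) lay between the sides. Of the 3, voom called Gch1 alone.

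Antimicrobial genes of the epithelium were next. Duoxa2, the maturation factor that brings the oxidase Duox2 to the cell surface, was at 61.1, 106 and 76.4 FPKM in CD+DSS and 17.4, 23.7 and 7.62 FPKM in HFD (2.35 ± 0.42, limma adjusted p = 0.0456). Duox2 itself had 62.2, 106 and 83.8 FPKM in CD+DSS and 31.4, 32.3 and 19.3 FPKM in HFD and just missed the call (1.57 ± 0.29, limma adjusted p = 0.0542). Both genes were at intermediate levels in CD, where Duoxa2 had 20.0, 28.8 and 37.3 FPKM. Lcn2, which binds bacterial siderophores, rose by 2.22 ± 0.40 (limma adjusted p = 0.0456), with 3.74, 3.25 and 14.3 FPKM in CD+DSS and 0.551, 0.411 and 0.398 FPKM in HFD. Of 19 tested epithelial defence genes, Duoxa2 and Lcn2 were called higher and none lower, 16 were positive and the median log2 fold change was 0.95, against 0.03 over all genes. The lectin Reg3g, which kills Gram-positive bacteria, had a large difference that was not called: 68.7, 589 and 520 FPKM in CD+DSS against 16.5, 7.86 and 19.3 FPKM in HFD (4.24 ± 0.86, limma adjusted p = 0.0718). Saa3, an acute-phase protein, had 11.7, 23.1 and 75.9 FPKM in CD+DSS and 1.71, 0.914 and 4.93 FPKM in HFD (3.19 ± 0.60, limma adjusted p = 0.0544). With voom, Reg3g, Duox2 and Duoxa2 were called and Lcn2 was not.

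Of the 41 gene lists, that of STAT3 and NF-kappaB feedback held the most called genes. Of 20 tested members, 5 were called higher (Socs3, Bcl3, Sbno2, Il4ra and Stat3), none was called lower, and 13 were higher at an unadjusted p under 0.05. The fold change was positive in 19 of the 20, with a median of 0.80. Over all genes tested, 0.308% were called higher and 10.6% were higher at that p. Of the 13312 genes 7102 were positive, with a median of 0.03. Socs3, the inhibitor that STAT3 itself induces, was at 36, 20.9 and 33.7 FPKM in CD+DSS and 5.82, 4.22 and 4.49 FPKM in HFD (2.39 ± 0.30, limma adjusted p = 0.00746). Bcl3, a nuclear partner of NF-kappaB, was at 40.5, 31.9 and 29.8 FPKM in CD+DSS and 10.6, 10.4 and 12.7 FPKM in HFD (1.51 ± 0.17, limma adjusted p = 0.00401). Stat3 itself was at 25.6, 23.1 and 25.8 FPKM in CD+DSS and 13.6, 12.1 and 14 FPKM in HFD (0.86 ± 0.14, limma adjusted p = 0.0359). Sbno2, a helicase-like co-regulator downstream of IL-10, rose by 1.14 ± 0.17, and Il4ra, the receptor chain for IL-4 and IL-13, by 1.13 ± 0.19. For Socs3 and Bcl3, HFD was at the CD level: the HFD minus CD difference was 0.13 ± 0.30 for Socs3 and -0.12 ± 0.17 for Bcl3, while CD+DSS minus CD was 2.52 ± 0.30 for Socs3 and 1.39 ± 0.17 for Bcl3.

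**Figure D2:**
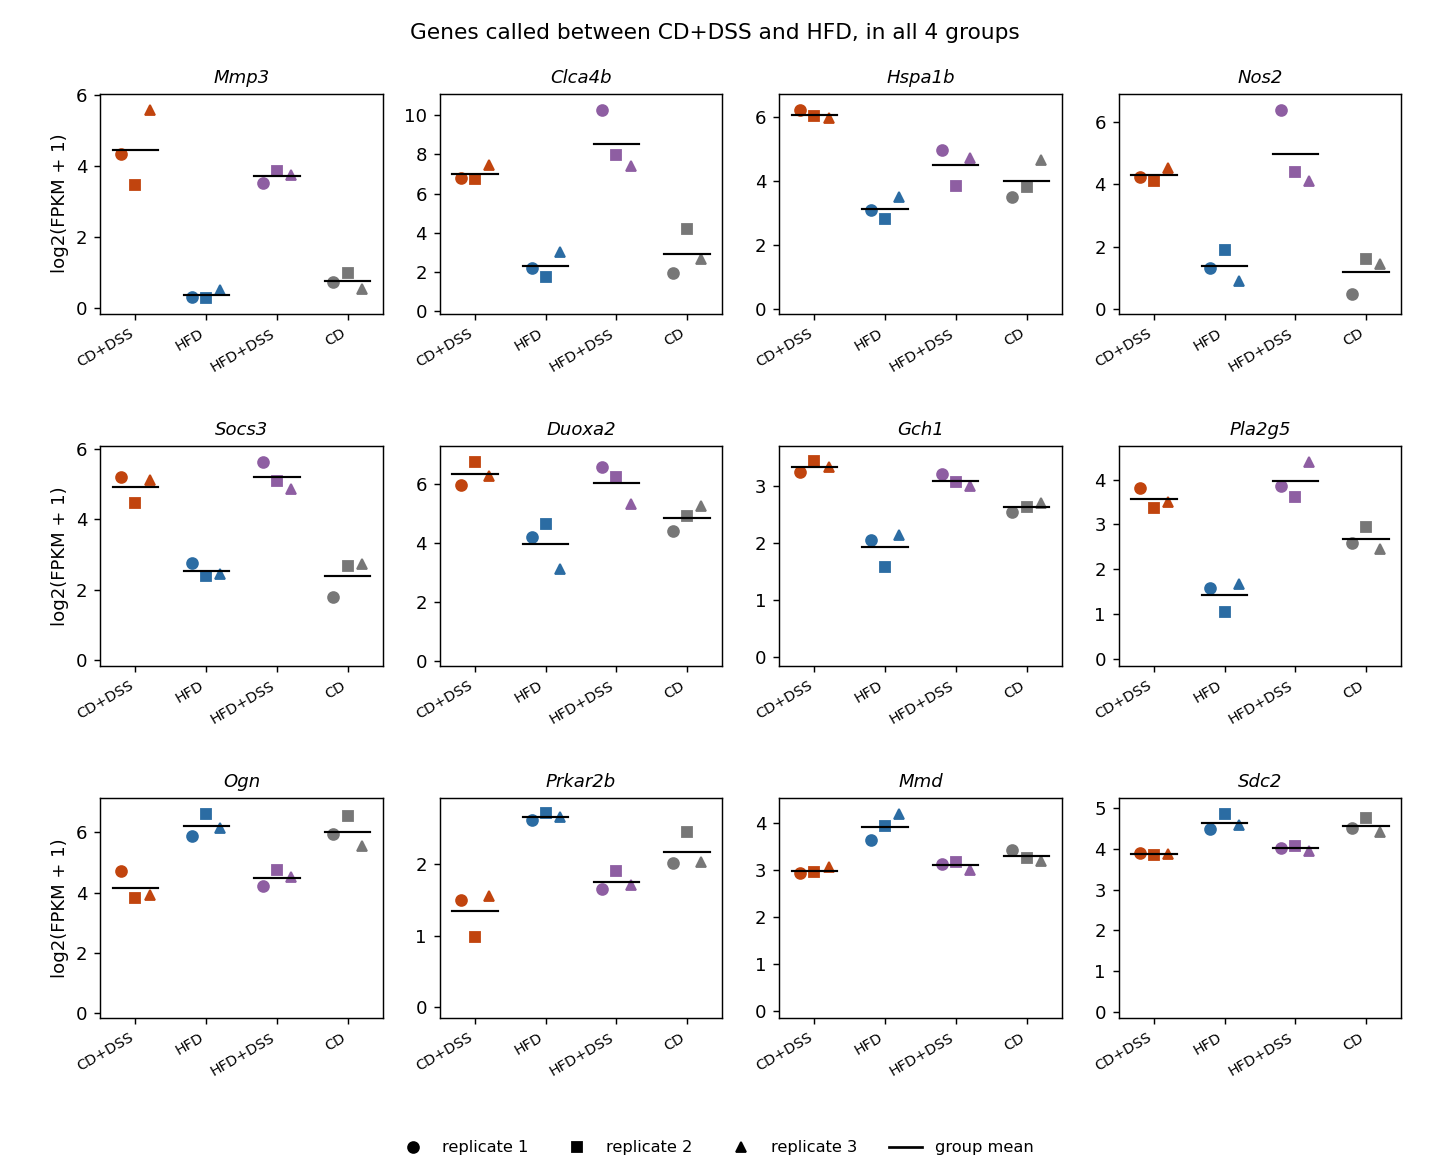
Levels of 12 called genes as log2(FPKM + 1) in every library, with CD+DSS left of HFD and the HFD+DSS and CD groups beside them; marker shapes give the replicate number and bars the group mean. The 8 genes in the upper rows are higher and the 4 in the bottom row lower in all 3 CD+DSS libraries than in all 3 HFD libraries.

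Few leukocyte genes were called. Of 17 cytokines and mediators only 6 passed the filter on low values. All 6 were positive and Nos2 was called. Tnf was at 4.12, 2.94 and 4.09 FPKM in CD+DSS and 0.919, 1.25 and 0.637 FPKM in HFD (limma adjusted p = 0.0775), and Il1b at 10.5, 5.21 and 26.8 FPKM in CD+DSS and 3.39, 3.03 and 2.36 FPKM in HFD (limma adjusted p = 0.192). No overlap was seen in either. None of 20 tested chemokines was called, 14 were positive and 5 were higher at an unadjusted p under 0.05. Neutrophil markers passed the filter in 5 of 14 cases, with none called and 3 higher at an unadjusted p under 0.05. Their summed level was 244, 115 and 179 FPKM in CD+DSS and 50.7, 44.9 and 94.6 FPKM in HFD. It was 162, 260 and 135 FPKM in CD without DSS, and most of it there was Cd177 (129, 90.8 and 109 FPKM) and Ly6g (30.4, 165 and 22.7 FPKM). These genes also made up most of the sum on both compared sides. Cd177 was at 132, 73.3 and 67.5 FPKM in CD+DSS and 45.5, 39.8 and 33.0 FPKM in HFD. Ly6g was at 99.4, 33.8 and 72.7 FPKM in CD+DSS and 0.800, 1.68 and 58.4 FPKM in HFD, highest there in the Hoxb13-high replicate 3. The part of these genes in the other results was not tested. S100a9, a calcium-binding protein that neutrophils carry in bulk, was at 3.49, 3.41 and 16.6 FPKM in CD+DSS and 0.722, 0.977 and 0.375 FPKM in HFD. In CD it was at 0.115, 0 and 0 FPKM, unlike Cd177 and Ly6g. Its partner S100a8 (1.18, 0.427 and 8.5 FPKM in CD+DSS, 0.452, 0 and 0.376 FPKM in HFD) did not pass the filter. The pan-leukocyte gene Ptprc was at 7.12, 2.60 and 3.65 FPKM in CD+DSS and 5.01, 6.65 and 4.74 FPKM in HFD, so this gene overlapped between the sides.

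T and NK cell markers gave opposite signs in the Hoxb13-low and Hoxb13-high libraries. None of 21 tested members was called or reached an unadjusted p under 0.05, and their median was 0.02. In the Hoxb13-low libraries (CD+DSS replicates 2 and 3 minus HFD replicates 1 and 2) the median was -0.42 with 0 of 21 positive, and in the Hoxb13-high ones (CD+DSS replicate 1 minus HFD replicate 3) it was 0.91 with 21 of 21 positive. The cytotoxic granule genes Gzma and Nkg7 overlapped between the sides, Gzma at 68.3, 37.6 and 25.5 FPKM in CD+DSS and 40.0, 41.2 and 32.9 FPKM in HFD, and Nkg7 at 11.6, 8.51 and 8.29 FPKM in CD+DSS and 11.3, 12.0 and 8.28 FPKM in HFD. In the Hoxb13-high CD libraries Gzma had 6.50, 7.46 and 23.0 FPKM and Nkg7 had 2.43, 2.51 and 6.04 FPKM. Against CD, the list median was 0.78 for CD+DSS and 0.66 for HFD; these comparisons share the CD libraries, which also differ from both sides in Hoxb13. In bulk tissue, fewer cells of a type and less RNA per cell cannot be told apart.

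The genes of inducible heat shock protein 70 (Hsp70) were called under every setting tried. Hspa1b (chromosome 17, 34956436 to 34959238) was at 74.6, 64.6 and 61.7 FPKM in CD+DSS and 7.62, 5.97 and 10.4 FPKM in HFD (2.94 ± 0.33, limma adjusted p = 0.00401). Hspa1a (chromosome 17, 34969190 to 34972156) was at 22.4, 22.6 and 18.9 FPKM in CD+DSS and 2.84, 1.89 and 4.09 FPKM in HFD (2.53 ± 0.27, limma adjusted p = 0.00401). They are neighbouring, near-identical genes for the stress-inducible chaperone, so the split of fragments between them is uncertain. In HFD+DSS both overlapped with CD. Hspa1a had 7.29, 3.81 and 6.23 FPKM in HFD+DSS and 4.10, 4.72 and 7.70 FPKM in CD, a difference of 0.06 ± 0.27 (limma adjusted p = 0.934), and Hspa1b differed by 0.52 ± 0.33 (limma adjusted p = 0.524). Of 18 tested heat shock chaperones, the other 16 were not called, and 8 of the 18 were higher at an unadjusted p under 0.05. Dnaja1, a co-chaperone of Hsp70, was at 43.8, 44.4 and 44.8 FPKM in CD+DSS and 16.2, 17.1 and 29.1 FPKM in HFD (1.10 ± 0.26, limma adjusted p = 0.0879).

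The promoters of Hspa1a and Hspa1b, from 250 bases before to 50 bases after the RefSeq start (GRCm38.p6), are shown because both genes moved alike, and those of Mmp3 and Duoxa2 because both are called and carry an AP-1 motif. Capitals mark the motif a script found: the core of a heat shock element, GAANNTTC, in the Hsp70 genes, and the AP-1 motif TGANTCA in the other 2.
Hspa1a, chr17:34972107-34972406, minus strand: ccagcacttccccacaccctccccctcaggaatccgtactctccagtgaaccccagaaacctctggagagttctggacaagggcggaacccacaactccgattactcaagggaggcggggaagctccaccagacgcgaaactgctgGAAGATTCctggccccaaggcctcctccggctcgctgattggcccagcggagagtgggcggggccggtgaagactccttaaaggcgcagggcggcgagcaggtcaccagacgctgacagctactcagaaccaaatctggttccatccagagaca
Hspa1b, chr17:34959189-34959488, minus strand: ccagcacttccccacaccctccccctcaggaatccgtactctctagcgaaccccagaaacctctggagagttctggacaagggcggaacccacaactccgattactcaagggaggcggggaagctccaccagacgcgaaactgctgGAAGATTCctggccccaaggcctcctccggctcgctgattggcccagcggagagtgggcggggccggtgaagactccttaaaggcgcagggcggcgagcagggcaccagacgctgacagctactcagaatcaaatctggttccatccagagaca
Mmp3, chr9:7445572-7445871, plus strand: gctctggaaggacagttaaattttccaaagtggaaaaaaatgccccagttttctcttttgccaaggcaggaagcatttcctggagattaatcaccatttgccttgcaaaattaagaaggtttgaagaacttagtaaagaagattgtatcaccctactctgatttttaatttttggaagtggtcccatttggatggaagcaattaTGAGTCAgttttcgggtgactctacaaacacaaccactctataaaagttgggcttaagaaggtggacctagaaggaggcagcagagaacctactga
Duoxa2, chr2:122298650-122298949, plus strand: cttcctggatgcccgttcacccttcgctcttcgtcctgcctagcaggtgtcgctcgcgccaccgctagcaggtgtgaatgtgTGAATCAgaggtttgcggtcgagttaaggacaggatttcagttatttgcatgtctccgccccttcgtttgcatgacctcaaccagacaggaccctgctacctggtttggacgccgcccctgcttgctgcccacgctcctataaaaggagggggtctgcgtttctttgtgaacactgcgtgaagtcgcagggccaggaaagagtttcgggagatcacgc
The Hsp70 promoters were identical at 296 of 300 bases, with the motif starting at -104 relative to the start of transcription in both. In Mmp3 the AP-1 motif started at -46 and in Duoxa2 at -168. Each of the 3 motifs searched reads the same on both strands, and each of these 4 promoters held a single match of the 3, so none overlapped. Promoters were given for 31 of the 41 genes called higher. The heat shock core was in 5 of them (Hspa1a, Hspa1b, Mst1r, Pla2g5 and Sbno2), against 9.04% of 27025 genes with a promoter window of this length. The AP-1 motif was also in 5 (Duoxa2, Fer1l4, Itga3, Mmp3 and S100a11), against 8.97% of genes, and the STAT motif TTCNNNGAA in 2 (Sbno2 and Socs3), against 9.55%. A match is a description of letters and not a site of binding.

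Genes of the repairing epithelium shared a direction. All 22 tested wound-associated genes had a positive fold change, with a median of 0.78, and 13 were higher at an unadjusted p under 0.05, but none was called by limma or voom. The median was 0.94 with 22 of 22 positive in the Hoxb13-low libraries and 0.51 with 18 of 22 positive in the Hoxb13-high ones. The direction was not particular to these genes: 19 of 23 junction, 18 of 20 goblet cell and 21 of 28 absorptive colonocyte genes were also positive. Of enteroendocrine genes 7 of 12 were positive, against 1 of 11 tuft cell and 2 of 15 stem cell and crypt-base genes. Whether the libraries held unequal shares of epithelium was not tested. Anxa2, a membrane-binding protein of spreading cells, was at 233, 295 and 231 FPKM in CD+DSS and 129, 121 and 182 FPKM in HFD (0.82 ± 0.22, limma adjusted p = 0.117). Called genes outside the wound-associated list included adhesion and motility genes. Itga3 and Itgb4, integrin chains that bind laminin, were at 41.3, 39.4 and 38.5 FPKM (Itga3) and 30.7, 33.8 and 31.8 FPKM (Itgb4) in CD+DSS, against 22.1, 15.8 and 19.8 FPKM (Itga3) and 18.0, 14.8 and 18.2 FPKM (Itgb4) in HFD. Mst1r, the receptor of macrophage-stimulating protein, was at 22, 27.4 and 21.8 FPKM in CD+DSS and 13.7, 9.96 and 9.06 FPKM in HFD. The actin-capping protein Capg was at 64.9, 56.5 and 60.6 FPKM in CD+DSS and 15.2, 13.1 and 20.0 FPKM in HFD (1.87 ± 0.21, limma adjusted p = 0.00401). All 4 were called, and none had overlapping groups.

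Further called genes covered secreted and transport proteins. Clca4b, a member of the calcium-activated chloride channel regulator family, had the largest fold change: it was at 111, 108 and 175 FPKM in CD+DSS and 3.56, 2.27 and 7.16 FPKM in HFD (4.70 ± 0.72, limma adjusted p = 0.0268). It has close paralogues beside it, and how the authors' counting shared reads among them is unknown here. Pla2g5, a secreted phospholipase A2, was at 13, 9.25 and 10.4 FPKM in CD+DSS and 1.98, 1.06 and 2.19 FPKM in HFD (2.13 ± 0.24, limma adjusted p = 0.00401). CD lay between, at 5.05, 6.73 and 4.45 FPKM. Prss22, a serine protease, was at 1.64, 5.88 and 8.21 FPKM in CD+DSS and listed at 0 in all 3 HFD libraries (limma adjusted p = 0.0456), and no fold is given against 0. Mfsd2a, a carrier of lysophosphatidylcholine, was at 9.92, 7.67 and 11.6 FPKM in CD+DSS and 1.09, 0.781 and 2.58 FPKM in HFD (2.16 ± 0.35, limma adjusted p = 0.0318). Ffar4, a receptor for long-chain fatty acids, was at 36.1, 68.1 and 32.6 FPKM in CD+DSS and 13.6, 7.81 and 15 FPKM in HFD (1.80 ± 0.31, limma adjusted p = 0.0386), with CD at 15.8, 11.1 and 14.7 FPKM. Slc16a3, the lactate exporter of glycolytic cells, was at 3.36, 7.45 and 9.18 FPKM in CD+DSS and 1.43, 1.04 and 0.760 FPKM in HFD (1.81 ± 0.30, limma adjusted p = 0.0318). Il34, a ligand of the receptor that macrophages need, was at 6.24, 5.71 and 5.61 FPKM in CD+DSS and 2.50, 2.08 and 1.86 FPKM in HFD (1.13 ± 0.15, limma adjusted p = 0.014). Smox, Fer1l4, Metrnl, S100a11, Tspo and Hs6st1 were also called higher, with log2 fold changes from 0.84 (Hs6st1) to 1.36 (Smox). Others of the 41 were Arpc1b, Tbc1d2, Micall2, Fam129b, Pgs1, Efhd2, Smpd3, 6430548M08Rik, Gm3788 and Gm25301, between 0.84 and 1.55 on the log2 scale.

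Hypoxia and glycolysis genes shared this direction. All 22 tested members were positive, with a median of 0.58, and 11 were higher at an unadjusted p under 0.05, none of them called by limma. The median was 0.83 with 21 of 22 positive in the Hoxb13-low libraries and 0.28 with 15 of 22 positive in the Hoxb13-high ones. Car9, a carbonic anhydrase induced by low oxygen, was at 30.4, 41.6 and 33.6 FPKM in CD+DSS and 18.4, 11.6 and 19.4 FPKM in HFD (1.07 ± 0.21, limma adjusted p = 0.0544) and was called with voom. Egln3, an oxygen sensor that is itself induced by hypoxia, was at 20.6, 46.7 and 31.3 FPKM in CD+DSS and 16.7, 15.3 and 13.5 FPKM in HFD (limma adjusted p = 0.113). Among NRF2 targets and glutathione defence genes 19 of 22 were positive (median 0.47), and among goblet cell genes 18 of 20 (median 0.45). None was called in either list, and 8 NRF2 and 2 goblet cell genes were higher at an unadjusted p under 0.05. Over all genes tested that share was 10.6%, so the goblet cell count was near it. In the Hoxb13-low and Hoxb13-high libraries the NRF2 medians were 0.69 (21 of 22 positive) and 0.08 (14 of 22). The goblet cell medians were 0.41 (18 of 20) and 0.26 (19 of 20) in the same order. Autophagy machinery, a named interest of the study, had a median of 0.12 over 39 tested genes with 27 positive, 2 higher and 1 lower at an unadjusted p under 0.05 and none called. Of these, Ulk2, a kinase that starts autophagy, had 5.13, 5.83 and 5.92 FPKM in CD+DSS and 7.89, 10.0 and 8.53 FPKM in HFD (-0.56 ± 0.15, limma adjusted p = 0.12). Atg2a, a lipid transfer protein of the growing autophagosome, had 8.26, 8.88 and 8.11 FPKM in CD+DSS and 6.05, 5.22 and 5.62 FPKM in HFD (0.51 ± 0.17, limma adjusted p = 0.201).

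**Figure D3:**
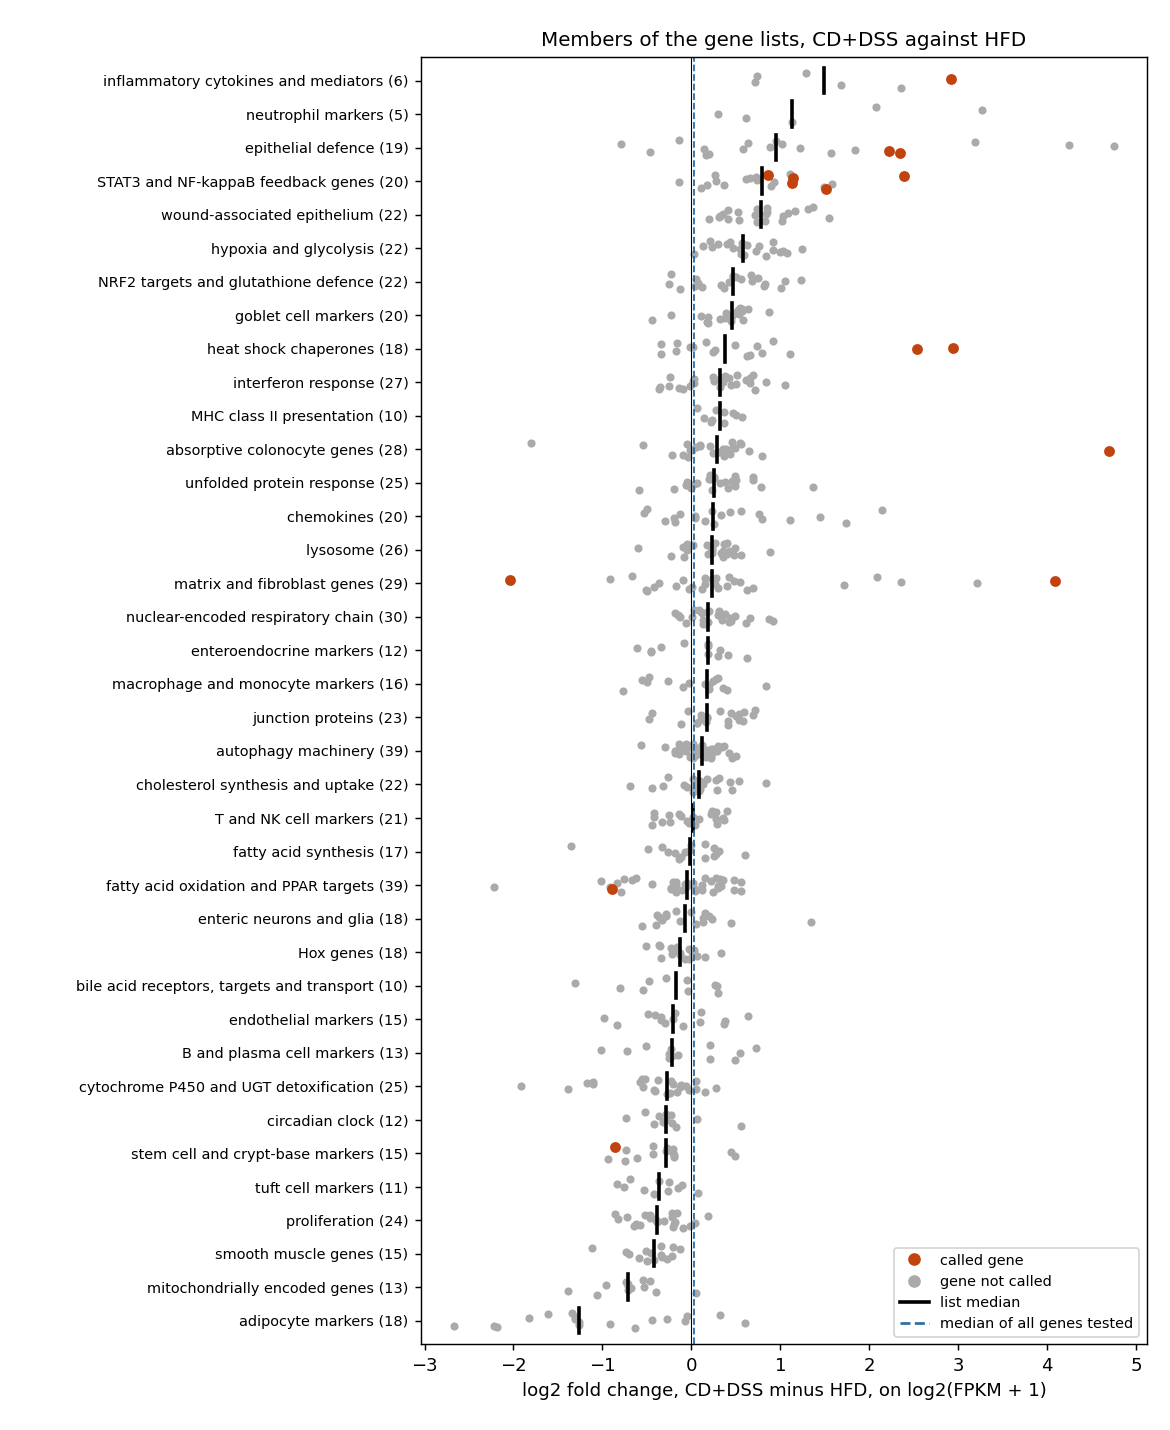
Log2 fold change of CD+DSS minus HFD for each tested member of the gene lists with 5 or more tested members (number tested in brackets); called genes are in orange, black bars mark list medians and the dashed line the median of all genes, 0.03. Cytokine, neutrophil, defence and STAT3 lists lie furthest to the right, and the adipocyte list, with a median of -1.27 and no call, furthest to the left. The neutrophil list rests on 5 of 14 markers, and its median of 1.13 is the value of Cd177. That gene differed by -0.32 ± 0.32 in CD+DSS minus CD and by -1.45 ± 0.32 in HFD minus CD (SE).

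Among the 10 genes lower in CD+DSS were regulators of signalling and fat metabolism. Prkar2b, a regulatory subunit of protein kinase A, was at 1.83, 0.974 and 1.95 FPKM in CD+DSS and 5.11, 5.54 and 5.32 FPKM in HFD (-1.31 ± 0.18, limma adjusted p = 0.014), with CD between them at 3.05, 4.48 and 3.07 FPKM. Acsl1, which activates long-chain fatty acids with coenzyme A, was at 2.12, 1.48 and 2.19 FPKM in CD+DSS and 4.71, 3.53 and 5.05 FPKM in HFD (-0.89 ± 0.16, limma adjusted p = 0.0457). Mmd, a membrane protein first seen in maturing monocytes, was at 6.63, 6.72 and 7.30 FPKM in CD+DSS and 11.4, 14.2 and 17.4 FPKM in HFD (-0.94 ± 0.15, limma adjusted p = 0.0318). Pcdh17, a protocadherin, fell by 1.09 ± 0.19 and Klhl23, a kelch-repeat protein, by 1.31 ± 0.24 on the log2 scale. Snord8, a small nucleolar RNA, was called too and was listed at 0 in all 3 CD+DSS libraries.

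Tnfrsf19 and Bambi, also lower, act in the crypt. Tnfrsf19, a receptor made by intestinal stem cells in the mouse, was at 0.645, 0.469 and 0.637 FPKM in CD+DSS and 2.07, 1.93 and 1.64 FPKM in HFD (-0.86 ± 0.14, limma adjusted p = 0.0332). Bambi, a decoy receptor of the TGF-beta family and a Wnt target, was at 0.781, 0.764 and 1.02 FPKM in CD+DSS and 2.19, 2.24 and 1.88 FPKM in HFD (-0.74 ± 0.14, limma adjusted p = 0.0484). Of 15 tested stem cell and crypt-base genes, Tnfrsf19 was called, 13 were negative, 6 were lower at an unadjusted p under 0.05 and the median was -0.28. Axin2, a feedback inhibitor that reports Wnt signalling, was at 2.48, 3.51 and 3.77 FPKM in CD+DSS and 7.16, 7.14 and 6.85 FPKM in HFD (-0.93 ± 0.22, limma adjusted p = 0.0948). The stem cell receptor Lgr5 (0.183, 0.108 and 0.888 FPKM in CD+DSS, 0.960, 1.41 and 1.07 FPKM in HFD) did not pass the filter. Proliferation genes had a median of -0.39, with 22 of 24 negative, 3 lower at an unadjusted p under 0.05 and none called. Tuft cell markers had a median of -0.36, with 10 of 11 negative, 4 lower at that p and none called; it was -0.60 with 0 of 11 positive in the Hoxb13-low libraries and 0.07 with 7 of 11 positive in the Hoxb13-high ones.

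Fat-related genes were read in an adipocyte list and in an oxidation list. Of 18 tested adipocyte markers 16 were negative, 10 were lower at an unadjusted p under 0.05 and the median was -1.27, with no call by limma or voom. Cd36, a fatty acid carrier of fat cells, endothelium and enterocytes, was at 5.66, 1.44 and 5.47 FPKM in CD+DSS and 21.9, 12.7 and 32.5 FPKM in HFD (-2.21 ± 0.47, limma adjusted p = 0.0743). Adipoq, the fat cell hormone adiponectin, was at 5.4, 0.536 and 7.43 FPKM in CD+DSS and 26.3, 7.22 and 33.6 FPKM in HFD (limma adjusted p = 0.296), so HFD replicate 2 overlapped with CD+DSS. The summed level of the 22 markers was 246, 277 and 287 FPKM in CD+DSS and 540, 239 and 579 FPKM in HFD. Whether the libraries held unequal amounts of attached fat was not tested. Relative to CD, the list median was 0.17 for CD+DSS and 1.45 for HFD.

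The genes of fatty acid oxidation and PPAR response had a median near 0 between the sides. Of 39 tested, Acsl1 was called lower, 19 were positive and the median was -0.05. Cd36, given above (-2.21 ± 0.47, not called), is also in this list. The Hoxb13-low libraries gave 0.17 with 30 of 39 positive, and the Hoxb13-high ones -0.51 with 5 of 39 positive. Pdk4, a kinase that spares glucose, and Angptl4, a lipase inhibitor, overlapped between the sides, Angptl4 with 3.27, 4.10 and 5.45 FPKM in CD+DSS and 6.36, 2.67 and 7.44 FPKM in HFD. Relative to CD, the median was 0.42 for CD+DSS and 0.40 for HFD, and 35 and 38 of the 39 genes were positive. For bile acid receptors, targets and transport genes the median over 10 tested was -0.17 between the sides, with none called or under an unadjusted p of 0.05. It was 0.04 with 5 of 10 positive in the Hoxb13-low libraries and -0.71 with 1 of 10 positive in the Hoxb13-high ones, and relative to CD it was 0.71 for CD+DSS and 0.53 for HFD. Both comparisons share the CD libraries, and Hoxb13 was high in all of these but in only 1 library of each side, so diet or injury cannot be told apart from position in them. Slc51a, a basolateral bile acid exporter, illustrates the overlap, with 9.55, 49.4 and 12.5 FPKM in CD+DSS, 34.4, 12.9 and 38.6 FPKM in HFD and 0.656, 1.73 and 14.4 FPKM in CD.

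**Figure D4:**
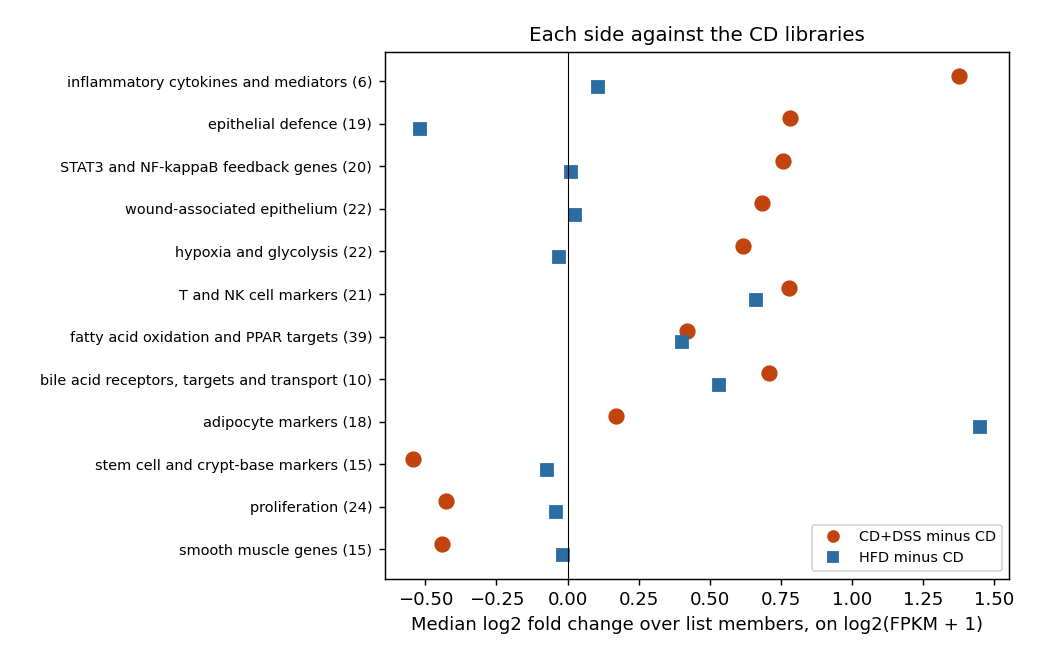
Median log2 fold change over the tested members of 12 gene lists, for CD+DSS minus CD (circles) and HFD minus CD (squares), which share the CD libraries. The inflammatory, defence, wound and hypoxia lists lie further right for CD+DSS than for HFD, T and NK cell, PPAR and bile acid lists lie to the right for both, and the adipocyte list for HFD. The CD libraries were all high in Hoxb13 and both sides were mixed, so diet or injury cannot be told apart from position here.

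Muscle and mitochondrial genes also differed between the Hoxb13-low and Hoxb13-high libraries. All 15 smooth muscle genes were negative, with a median of -0.42, 2 lower at an unadjusted p under 0.05 and none called, yet the median was -0.96 in the Hoxb13-low libraries and 0.53 in the Hoxb13-high ones. Summed over the list, the level was 1669, 951 and 1075 FPKM in CD+DSS and 1775, 2422 and 1090 FPKM in HFD, so that HFD replicate 2 was highest. The mitochondrially encoded genes had a median of -0.71 with 12 of 13 negative and none called or under an unadjusted p of 0.05. That median was -0.11 in the Hoxb13-low libraries and -1.53 in the Hoxb13-high ones. Cytochrome P450 and UGT genes likewise had medians of 0.14 and -1.18 in the low and high libraries. The high stratum is 1 library against 1 and has no replicate.

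Each called gene was read in the same strata. All 41 higher and all 10 lower genes kept their direction in the Hoxb13-low and in the Hoxb13-high libraries, which follows from groups that do not overlap. The median difference of the higher genes was 1.31 in the low and 1.31 in the high libraries. The median size for the lower genes was 0.98 in the low and 1.06 in the high libraries. Calling on these same libraries picked differences that were large beside the spread, which favours like sizes in both strata. The like sizes therefore show nothing about position. Mmp3 differed by 4.23 in the low libraries and 3.81 in the high ones, and Socs3 by 2.21 and 2.75. With the mean Hox level as a covariate 43 genes were called, 34 of them among the 51. Without CD+DSS replicate 1 and HFD replicate 3, the Hoxb13-high libraries, 16 genes were called, 9 of them among the 51.

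**Figure D5:**
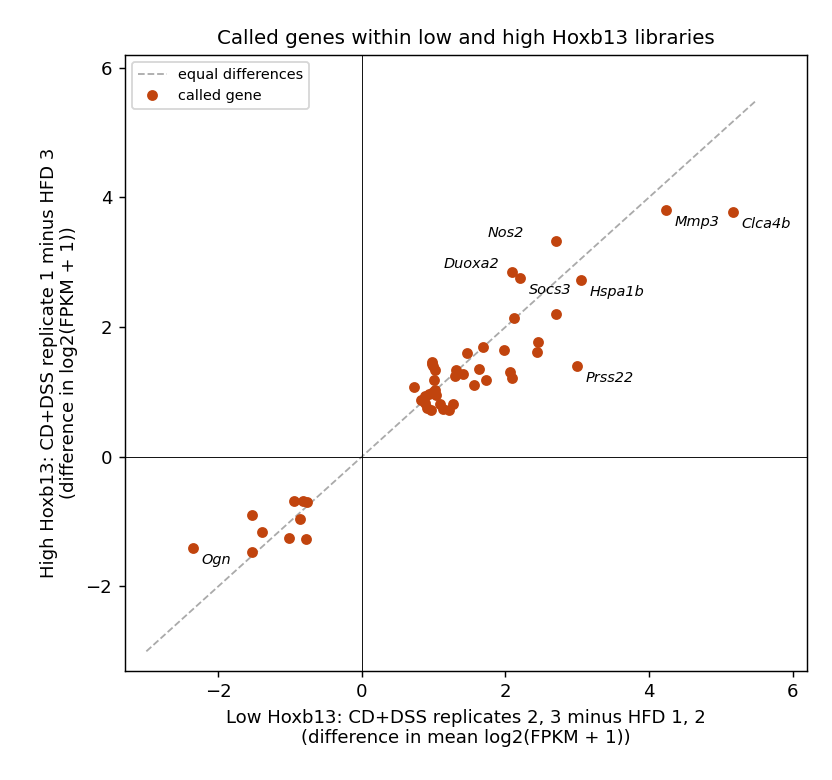
Each of the 51 called genes, with its difference among Hoxb13-low libraries (CD+DSS replicates 2 and 3 minus HFD replicates 1 and 2) on the x axis and between the Hoxb13-high libraries (CD+DSS replicate 1 minus HFD replicate 3) on the y axis, both in log2(FPKM + 1). Points lie in the upper right or lower left part, as calling without overlap requires. Most are near the dashed line of equal differences, which calling on these same libraries favours. Prss22 and Clca4b are smaller in the high pair.

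The CD level is given as a description, since genes chosen for a difference between the sides tend to have another group between them, and the CD libraries were all Hoxb13-high. For the 41 genes higher in CD+DSS, the CD mean was between the sides in 38 and beyond HFD in 3, and it was nearer to HFD in 36. For the 10 lower genes it was between the sides in all 10 and nearer to HFD in 8. Prkar2b and Pla2g5 are examples with CD in the middle: Pla2g5 differed by 0.89 ± 0.24 in CD+DSS minus CD and by -1.23 ± 0.24 in HFD minus CD (SE), and Prkar2b by -0.82 ± 0.18 and 0.49 ± 0.18 in the same order. Nos2, by contrast, differed by 3.10 ± 0.52 in CD+DSS minus CD and by 0.19 ± 0.52 in HFD minus CD.

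The remaining pair of groups, HFD+DSS and CD, shares no library with the 6 compared and is Hoxb13-high throughout. Its libraries were in the same limma fit and its shared estimate of the spread, so they had a part in which genes were called. Of the 41 higher genes, 40 were also higher in HFD+DSS than in CD, the exception being the predicted gene Gm25301, whereas 49.2% of all tested genes were. Of the 10 lower genes, all 10 were lower in HFD+DSS than in CD, beside 50.8% of all tested genes. The differences were smaller, with a median size of 0.61 for the 41 higher genes, against 1.32 between CD+DSS and HFD, and 0.43 for the 10 lower genes, against 1.02. Clca4b, Nos2 and Socs3 were at least as far apart there (5.63 ± 0.72, 3.78 ± 0.52 and 2.79 ± 0.30 on the log2 scale), whereas Hspa1a and Hspa1b had the small differences given above.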

How the data were processed

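Per the labels' protocols, the 12 colon RNA samples were sequenced from SMARTER mRNA-Seq kit libraries. Per the submitters' processing notes the build was mm10; no source used here names an aligner, counter or annotation. Gene levels are the FPKM that the authors deposited, in 1 table. Symbols, coordinates and exon lengths came from GENCODE M21 of mm10. With these lengths, 97.0% to 97.2% of values per library came out as whole fragments within 0.1. The median ratio to the geometric mean was 1.0087 in every library, so these FPKM were already scaled to equal medians.

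Values were analysed as log2(FPKM + 1) with limma 3.58.1 in R 4.3.3 (lmFit, eBayes with trend, 2-sided), with 1 mean for each of the 4 groups and 8 residual degrees of freedom, and with Python 3.11.15. Fold changes are CD+DSS minus HFD unless said otherwise, with the standard error (SE) from limma, and understate changes of low genes. The fit was tested on simulated data. Alternatives were a pseudocount of 0.1, no filter, a filter over 12 libraries, the 6 libraries alone, TPM scaling, a replicate block, the Hox level as covariate, voom on recovered fragments, and leaving out libraries.

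The comparison, the 41 gene lists (892 entries, 750 tested) and the motifs were chosen with earlier results of these data known, so lists are described by counts and medians with no test. Named genes are the 12 largest called changes each way without overlap and with 5 FPKM or more on the higher side, filled up to 6 by smallest p, up to 3 members per list by smallest p, the 3 posterior Hox genes, defining cell markers and fixed marker genes. Called genes outside this rule, among them Gch1, Gchfr, Ffar4, Slc16a3, Il34, Mst1r, Itga3, Itgb4, Il4ra, Stat3, Pcdh17 and Bambi, and Hoxb6 were named after their values were seen. The setting of HFD+DSS against CD was added after seeing the data. Promoters are from RefSeq (GRCm38.p6). A few genes that the rule names are not reported here.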

Additional observations from a re-analysis of the deposited data

How the results depend on the processing

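The count of genes called was 51, of which 41 were higher and 10 lower in CD+DSS. It was 28 (25 higher, 3 lower) when no low genes were filtered out, 21 (18 and 3) with only the 6 libraries fitted, 22 (20 and 2) after TPM scaling, and 16 (12 and 4) without CD+DSS replicate 1 and HFD replicate 3. A pseudocount of 0.1 gave 48, a filter over all 12 libraries 46, the Hox covariate 43 and voom on recovered fragments 54. Leaving out 1 library gave 7 to 81 calls, 7 to 67 higher and 0 to 17 lower. With a replicate block the count was 10 (10 higher, 0 lower). Over 18 same-numbered pairs r ran from -0.49 to 0.22, 3 were over 0.1, and a library correlated best with its own number in 6 of 36 cases. These values showed no pairing by number, but deviations from means of 3 libraries cannot settle whether the samples are paired. All 51 genes kept their sign under each of these settings. Since their groups do not overlap, this was fixed in advance except under TPM scaling, the Hox covariate and voom. The difference in posterior Hox level, -0.39, ranged from -1.20 to 0.35 when 1 library was left out. The causes of these shifts were not tested. For single genes, 368 of the recomputed values lost the call, 24 gained it and none of the called values changed sign. Genes under 1 FPKM rest on few fragments, as the 1 to 4 fragments of Hoxb13 in CD+DSS replicates 2 and 3 show, and 3 libraries a group limit what can be called.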
